A study of Mus musculus with 6 samples.

Results

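The transcripts of 43 genes for enzymes of aldehyde, alcohol and xenobiotic metabolism were described in mouse kidney epithelial cells that were attached or held in suspension. The genes were chosen by symbol (Akr, Aldh, Adh, Cbr, Cyp or Ugt, in rows that name 1 gene) and selected on a level of at least 1 FPKM in either condition. FPKM are fragment counts scaled by transcript length and by library size, so levels can be compared between genes of different length. Of 37757 rows in the authors' deposited table, 158 carried such a symbol and 43 of these reached the level. Cyp51, Aldh18a1 and Aldh1l2, which serve sterol, proline and folate metabolism, were left out beforehand. All 43 rows overlapped the gene of the same name in the GENCODE M21 annotation of the mm10 build, and all 43 were tested by the authors. Because the FPKM of both conditions chose the genes, the levels, fold changes and calls given for them are a description.

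The cells came from C57/Bl6J mice aged 8 weeks, and both groups carry the genotype Bim-/- Bmf-/-, so the attached controls lack the same pair of death genes as the suspended cells. There were 3 attached libraries and 3 libraries from cells kept in suspension for 4 h, a state the sample titles call anoikis, which is death after loss of anchorage. The comparison asks which transcripts differ once such cells have lost their attachment. No cells with intact Bim and Bmf were analysed here, and the labels do not say whether the libraries came from separate cultures or animals. Each condition has 1 FPKM per gene, which the authors made over its libraries, so no spread between libraries can be given, the depth is unknown, and the spread behind the authors' p may be technical. The condition of a column was taken from its last letter, A for attached and S for suspended. In bulk samples fewer cells of a type and less RNA per cell cannot be told apart.

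The enzymes fall into a few superfamilies. Alcohol dehydrogenases (ADH) and cytochromes P450 (CYP) oxidise alcohols, lipids, steroids, retinoids and foreign compounds. Aldehyde dehydrogenases (ALDH) turn the reactive aldehydes that arise into acids, while aldo-keto reductases (AKR) and carbonyl reductases (CBR) reduce aldehydes, ketones and quinones to alcohols with NADPH. UDP-glycosyltransferases (UGT) then attach a sugar, most often glucuronic acid, which makes the product soluble. In the kidney these families clear metabolites and drugs, make osmolytes and control local retinoic acid.

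The cells expressed epithelial and renal genes: 12 of 12 such markers reached 1 FPKM, with a summed level of 4691 FPKM attached and 4230 FPKM suspended. Of 12 proximal tubule markers 2 reached 1 FPKM, Aqp1 (79.1 attached, 11.8 suspended) and Ggt1 (0.827 attached, 1.56 suspended), and the transporters Slc34a1, Slc5a2 and Slc22a6 were listed at 0. The 8 hepatocyte markers reached at most 0.0833 FPKM. Markers of other cell types moved between conditions. Beside their calls, 24.7% of all tested rows were called higher and 26.3% lower. Of 10 leukocyte markers, with a sum of 71.1 and 90.7 FPKM, 4 were tested and 3 were called higher. These were Ptprc (1.42 to 12.4 FPKM), Csf1r (0.729 to 3.25 FPKM) and Cd68 (23.4 to 34.9 FPKM). Cd14, the largest part of that sum in both conditions, was not called (45.1 attached, 39.8 suspended). The remaining leukocyte markers stayed below 1 FPKM, with Tyrobp listed at 0. The podocyte genes Podxl and Synpo were called higher and brought the sum of 4 markers from 4.13 to 20.6 FPKM. Nphs1 and Wt1 were at 0 in attached cells and at 0.00427 and 0.0576 FPKM in suspended cells. The endothelial sum of 6 markers was 0.855 and 2.48 FPKM, with Emcn at 0. Among them only Flt1 reached 1 FPKM (0.501 to 2.18 FPKM, called higher). The fibroblast and mural sum of 8 markers was 3.13 and 3.28 FPKM, with Lum at 0. Within that last sum Pdgfra was called higher (0.155 to 1.81 FPKM) and Acta2 lower (2.90 to 1.10 FPKM). The part of other cell types in the enzyme values was not tested.

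Of the 43 enzyme genes, the authors' deposited table calls 21 higher in suspension and 9 lower, and leaves 13 without a call. A call means a q, the authors' adjusted p, below 0.05. These counts are 48.8% and 20.9% of the genes, 69.8% together. Among all 12811 tested rows of at least 1 FPKM, 24.8% were called higher and 29.5% lower, 54.3% in all. With at least a 2-fold change as well, 11 of the enzyme genes were called higher and 7 lower, which is 25.6% and 16.3%. The corresponding shares of tested rows of at least 1 FPKM were 11.0% and 7.47%. The median log2 fold change (suspended over attached) of the enzyme genes was 0.26, against -0.08 for tested rows of at least 1 FPKM in either condition. Among rows that reached 1 FPKM attached and suspended, the median was -0.11, and relative to it the median of the enzyme genes was 0.36.

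The level rule bears on these counts. In 10 genes only 1 condition reached 1 FPKM, 8 through suspension and 2 through attachment, and all 10 were called in that direction. The 8 were Adh7, Aldh1a3, Aldh1b1, Cyp1a1, Cyp2s1, Cyp3a13, Cyp7b1 and Ugt2b34, and the 2 were Cbr2 and Cyp2u1. The rule thus fixed the direction of all 10. The other 33 genes reached 1 FPKM in both conditions, of which 13 were called higher, 7 lower and 13 not called. With the 2-fold minimum these 33 genes had 3 called higher and 5 lower, so the larger count was then on the lower side, and 8 of the 11 genes counted above as 2-fold higher had reached 1 FPKM in suspension only. Just inside the rule stood Aldh1b1, with 1.53 FPKM in its higher condition, and Cyp2u1, with 1.83 FPKM. Just outside it were Cyp4f41-ps with 0.862 FPKM and Cyp4b1 with 0.676 FPKM. The smallest q of the authors' deposited table, 0.000185, belongs to every called gene named from here on that has no q printed beside it.

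**Figure D1:**
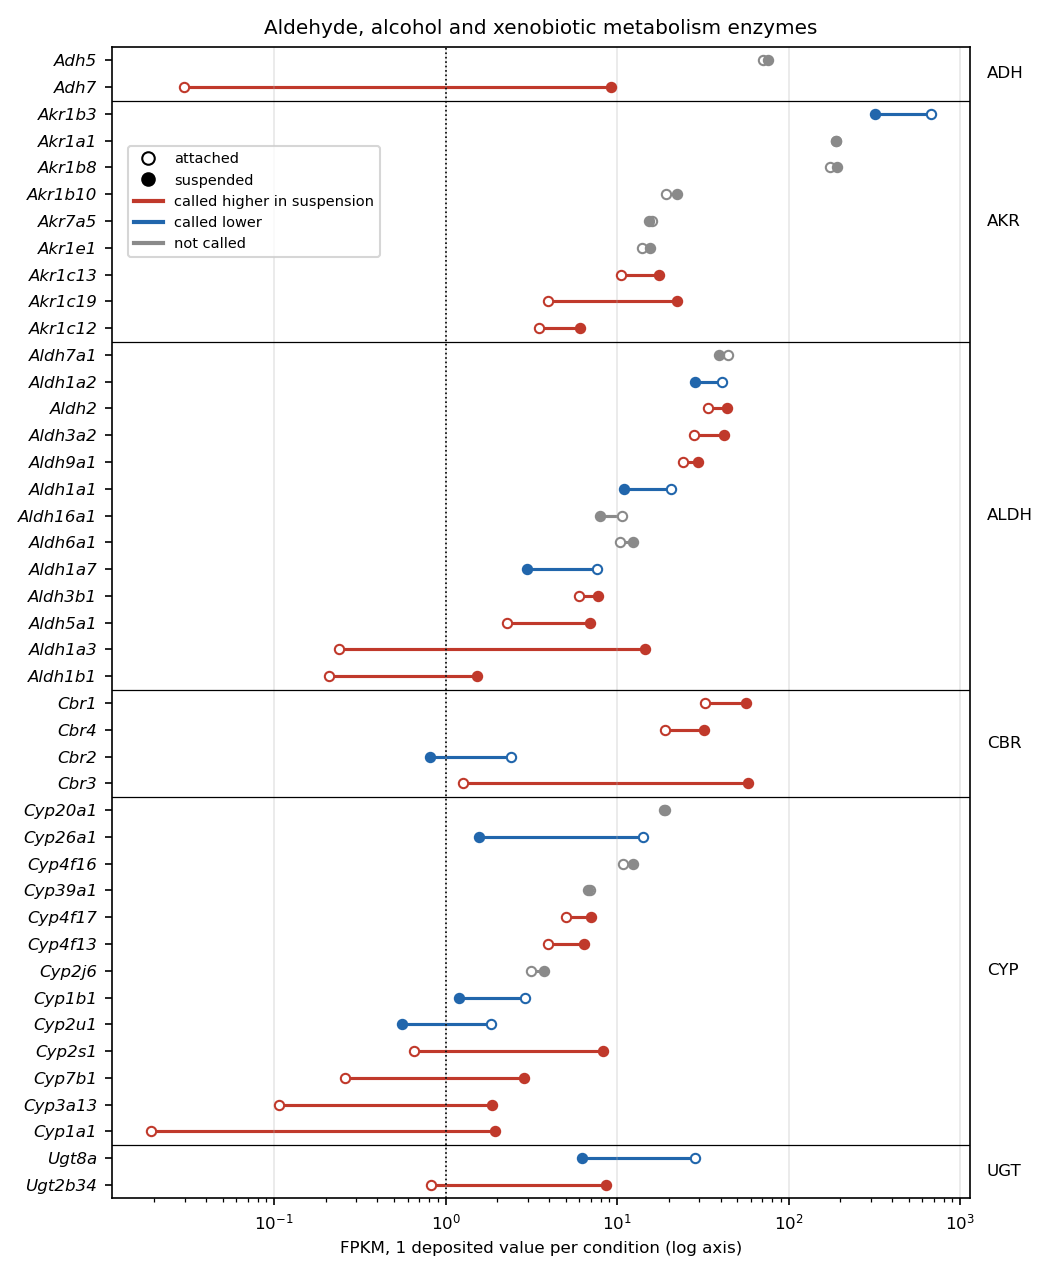
FPKM of the 43 enzyme genes on a log axis, 1 deposited value per condition (open circles attached, filled circles suspended), grouped by superfamily and coloured by the authors' call; the dotted line marks 1 FPKM. The widest rises start near or below 1 FPKM (Adh7, Cyp1a1, Aldh1a3, Cbr3), whereas the most abundant genes are Akr1b3, which was called lower, and Akr1a1 and Akr1b8, which were not called.

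**Figure D2:**
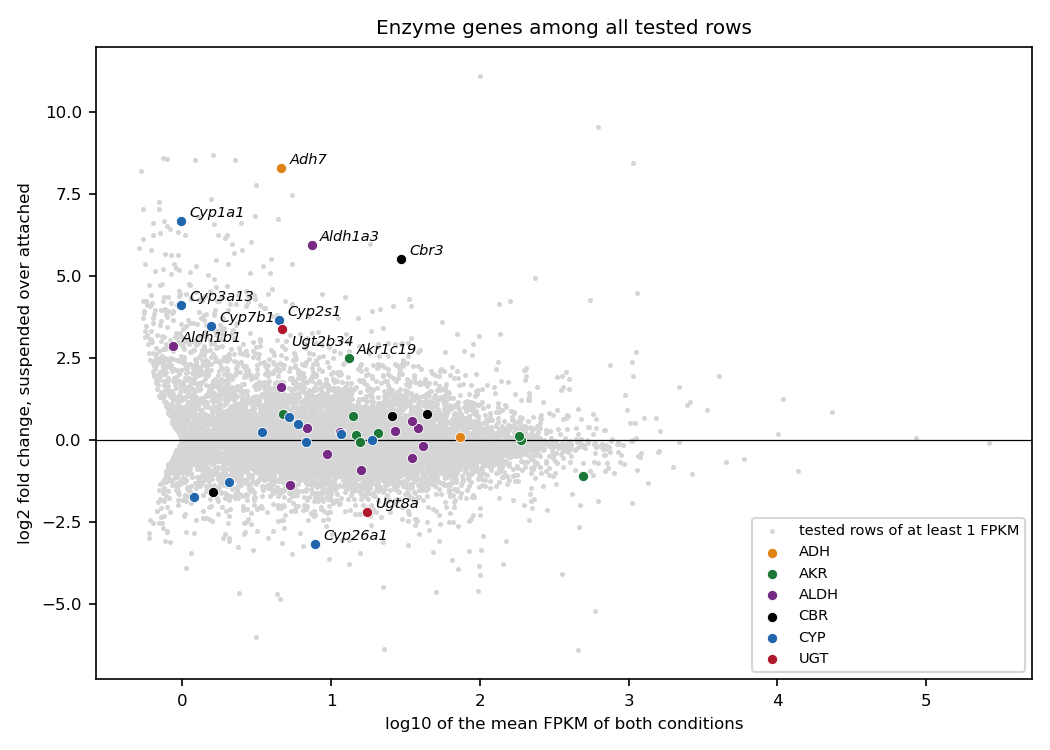
The log2 fold change (suspended over attached) of the enzyme genes, coloured by superfamily, against the log10 of their mean FPKM, over all tested rows of at least 1 FPKM in grey. Adh7, Cyp1a1, Aldh1a3 and Cbr3 lie above most grey points of a like level, and Cyp26a1 and Ugt8a below most of them.

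The genes grouped here as enzymes of retinoid metabolism differed between the conditions in both directions. All 6 were called, 2 higher (Adh7 and Aldh1a3) and 4 lower (Aldh1a1, Aldh1a2, Aldh1a7 and Cyp26a1). Of tested rows of at least 1 FPKM, 54.3% were called, 24.8% higher and 29.5% lower. Adh7 and Aldh1a3 entered the set through their suspended level only, so the rule fixed their direction. Aldh1a7 is counted among the 6 although it is not among the genes named next for making retinoic acid. Retinol is oxidised to retinaldehyde by dehydrogenases, then to retinoic acid by Aldh1a1, Aldh1a2 and Aldh1a3, and Cyp26a1 hydroxylates retinoic acid and so removes it. Adh7, an alcohol dehydrogenase that accepts retinol and ethanol, stood at 0.0298 FPKM attached and 9.23 FPKM suspended. Its q was 0.00387 in the authors' deposited table, and the attached level is too near 0 for the 310-fold ratio to be precise. With a pseudocount of 1 FPKM its log2 difference was 3.31 in place of 8.28. Adh7 spans chromosome 3, positions 138210716 to 138240405.

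The retinaldehyde dehydrogenases changed in opposite directions. Aldh1a3 (chromosome 7, positions 66390892 to 66427517) stood at 0.240 FPKM attached and 14.6 FPKM suspended, 60.9-fold higher in suspension, and with a pseudocount of 1 FPKM its log2 difference was 3.65 in place of 5.93. Aldh1a2 went from 41.0 to 28.4 FPKM (1.45-fold lower) and Aldh1a1 from 20.6 to 11.0 FPKM (1.88-fold lower). Their summed level was 61.9 FPKM attached and 53.9 FPKM suspended, so the sum differed far less than Aldh1a3 did. Within that sum Aldh1a3 made up 0.387% attached and 27.1% suspended, Aldh1a2 66.4% and 52.6%, and Aldh1a1 33.3% and 20.3%. Aldh1a2 remained the most abundant of the 3 in both conditions. Aldh1a7, a close paralogue of Aldh1a1, went from 7.59 to 2.97 FPKM, 2.55-fold lower.

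Cyp26a1 (chromosome 19, positions 37697808 to 37701528) had the largest fall by ratio of the 43 genes, from 14.1 FPKM attached to 1.57 FPKM suspended, 8.99-fold. Its relatives Cyp26b1 and Cyp26c1 stayed below 1 FPKM. Retinoic acid is known to induce Cyp26a1 through retinoic acid response elements, which are direct repeats of a receptor half-site with a 5-base spacer. The 120 bases before its RefSeq start are shown because they hold such an element, in capitals (GRCm38.p6, chr19:37697688-37697807, plus strand, matched on the opposite strand).
Cyp26a1: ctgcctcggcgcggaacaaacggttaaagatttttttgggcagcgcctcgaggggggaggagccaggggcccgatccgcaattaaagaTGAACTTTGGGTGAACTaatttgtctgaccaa

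The element runs from 32 to 16 bases before the start. A direct repeat of this kind, searched on both strands in 300-base windows (250 bases before to 50 after each RefSeq start), was present in 31 of 27025 genes, 0.115%. Among the 35 enzyme genes in that promoter table Cyp26a1 was the only one with it. The repeat was searched after the data were seen, and such elements were already known for Cyp26a1. The match and its rarity therefore give no support to any reading of the fall. A match is a description of the letters and shows no binding.

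The other genes of the retinoid pathway also split. In a list of 23 handling proteins and receptors, 22 had a row, 15 were tested, 5 were called higher, 7 lower and 3 not called in the authors' deposited table. Of all 14748 tested rows, with no level rule, 24.7% were called higher and 26.3% lower, 51.0% together. The retinol dehydrogenases and the reductase named next were lower. Rdh10, the main retinol dehydrogenase of embryos, went from 115 to 83.9 FPKM, Rdh11 from 92.8 to 31.0 FPKM and Rdh12 from 8.17 to 2.31 FPKM. Dhrs3, which reduces retinaldehyde back to retinol, went from 17.5 to 8.91 FPKM. Of the retinoic acid receptors, Rarb went from 8.75 to 2.30 FPKM and Rarg from 38.5 to 28.1 FPKM (q = 0.00185). Rara stood at 7.56 and 7.86 FPKM (authors' deposited table, q = 0.779). Higher transcripts included those of an uptake and a carrier protein: the retinol transporter gene Stra6 went from 2.90 to 9.24 FPKM and Crabp2, which carries retinoic acid to its receptors, from 2.35 to 6.22 FPKM.

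**Figure D3:**
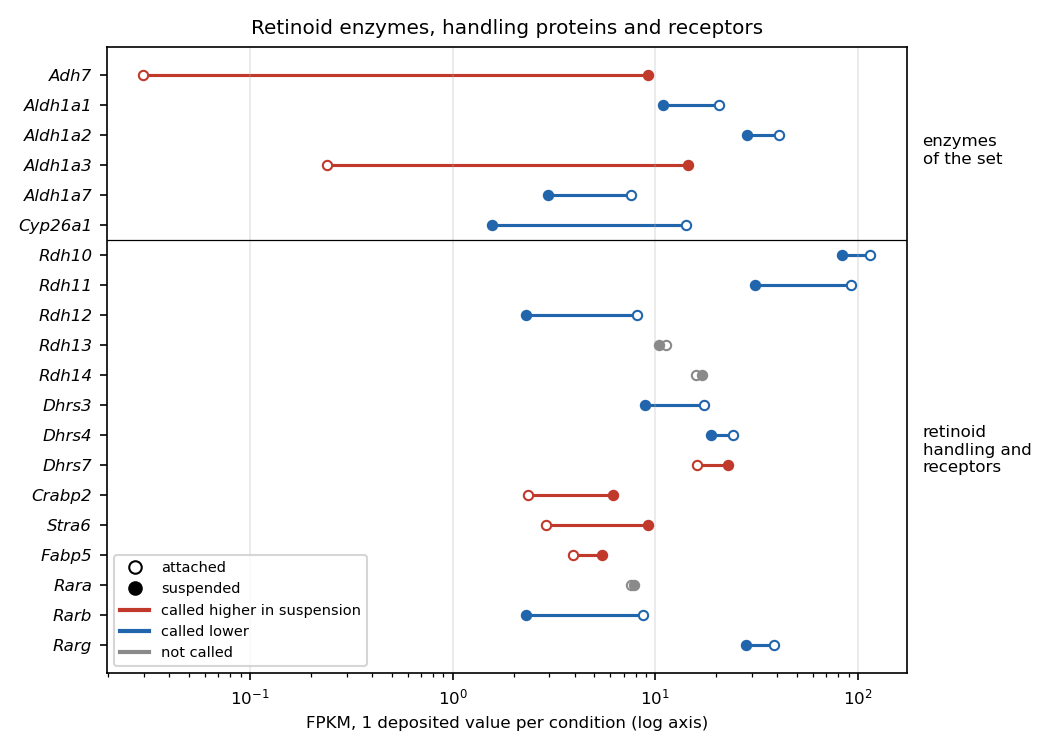
FPKM on a log axis, 1 deposited value per condition, coloured by the authors' call. At the top are the 6 genes grouped as retinoid enzymes. At the bottom are the tested retinoid handling proteins and receptors of at least 1 FPKM. Aldh1a3 and Adh7 move right while Cyp26a1, Rarb, Rdh11 and Rdh12 move left, and Rara does not shift visibly.

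Aldh1a1 and Aldh1a7 lie next to each other and fell together. Aldh1a1 occupies chromosome 19, positions 20601961 to 20643462, on the plus strand, and Aldh1a7 positions 20692953 to 20727562 on the minus strand, 49.5 kb further on. Their coding sequences are 91.8% identical, so the split of reads between them is uncertain. The 120 bases before each RefSeq start are shown because they share an unbroken run of 65 bases at the same distance from the start, in capitals (GRCm38.p6, chr19:20601848-20601967 plus strand and chr19:20727557-20727676 minus strand).
Aldh1a1: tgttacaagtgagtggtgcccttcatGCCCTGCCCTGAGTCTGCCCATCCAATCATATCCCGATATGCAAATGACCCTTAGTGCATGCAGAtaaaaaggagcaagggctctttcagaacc
Aldh1a7: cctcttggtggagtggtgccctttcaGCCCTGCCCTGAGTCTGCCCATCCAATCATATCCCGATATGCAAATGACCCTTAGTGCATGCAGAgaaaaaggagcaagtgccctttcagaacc

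Both sequences come from RefSeq and end 1 base before the annotated start. Over the 250 bases before the start the pair is 68.0% identical in a global alignment. Aldh1a1 kept a level above that of Aldh1a7 in both conditions.

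Aldo-keto reductases of sugars and simple aldehydes had the highest summed level of the enzyme groups. Of 6 genes, 1 was called lower and 5 were not called. Among tested rows of at least 1 FPKM, 24.8% were called higher and 29.5% lower. Akr1b3, aldose reductase, which makes the osmolyte sorbitol from glucose, had the highest level of the 43 genes. It stood at 673 FPKM attached and 319 FPKM suspended, 2.11-fold lower in suspension, and its rank among 14404 tested rows naming 1 gene went from 71 to 161. It made up 43.3% of the summed FPKM of all 43 genes attached and 23.4% suspended, and that sum was 1554 and 1365 FPKM. Akr1b3 lies on chromosome 6, positions 34290265 to 34324249. Sord, which oxidises sorbitol to fructose, went the other way, 4.09-fold higher in suspension from an attached level of 1.47 FPKM.

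The neighbours and relatives of Akr1b3 were not called. Akr1b8 and Akr1b10, within 107 kb of it in the same cluster, stood at 174 and 191 FPKM (authors' deposited table, q = 0.288) and at 19.3 and 22.3 FPKM (q = 0.189). Akr1a1, an aldehyde reductase that also reduces glucuronate, stood at 187 and 189 FPKM (authors' deposited table, q = 0.937). Akr7a5, a reductase of succinic semialdehyde and dialdehydes, stood at 16.0 and 15.3 FPKM, and Akr1e1 at 13.9 and 15.5 FPKM, neither called. The 5 genes without a call differed by at most 1.16-fold, which is a statement on the pooled values only.

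The hydroxysteroid-type aldo-keto reductases were all higher in suspension, beside 24.8% of tested rows of at least 1 FPKM called higher. Akr1c19 (chromosome 13, positions 4228700 to 4248681) went from 3.94 to 22.3 FPKM, 5.66-fold. Akr1c13 went from 10.5 to 17.6 FPKM (1.68-fold) and Akr1c12 from 3.50 to 6.04 FPKM (1.73-fold). The most abundant of the 3 was Akr1c13 in attached and Akr1c19 in suspended cells. Akr1c12 and Akr1c13 have coding sequences 96.2% identical, so their separate levels are uncertain, whereas Akr1c19 is 78.0% identical to either. Their promoters show the same order of likeness, and the 170 bases before each RefSeq start are given for that reason. Capitals mark the longest run shared by Akr1c12 and Akr1c13, 75 bases (GRCm38.p6, chr13:4279400-4279569 minus strand, chr13:4191017-4191186 plus strand and chr13:4233570-4233739 plus strand).
Akr1c12: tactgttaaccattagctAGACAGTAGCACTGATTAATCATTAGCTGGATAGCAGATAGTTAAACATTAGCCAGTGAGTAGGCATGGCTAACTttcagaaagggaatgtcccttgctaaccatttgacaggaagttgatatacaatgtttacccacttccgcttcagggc
Akr1c13: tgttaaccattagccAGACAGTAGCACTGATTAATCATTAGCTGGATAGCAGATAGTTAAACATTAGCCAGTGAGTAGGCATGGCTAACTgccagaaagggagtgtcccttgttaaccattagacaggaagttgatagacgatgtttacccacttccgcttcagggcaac
Akr1c19: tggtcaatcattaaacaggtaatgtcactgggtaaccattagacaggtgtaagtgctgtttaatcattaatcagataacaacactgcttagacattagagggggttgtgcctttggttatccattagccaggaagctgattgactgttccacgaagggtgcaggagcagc

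Over the 250 bases before the start, Akr1c12 and Akr1c13 were 92.5% identical, and their fold changes were close to each other. Akr1c19 was 60.3% identical to Akr1c13 over that window, with a longest shared run of 15 bases, and had the larger fold change. The RefSeq start of Akr1c19 lies inside its deposited row, downstream of the row's first base.

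Carbonyl reductases were mostly higher in suspension. Of 4 genes 3 were called higher and 1 lower, and their summed level went from 55.0 to 147 FPKM. For tested rows of at least 1 FPKM the shares were 24.8% higher and 29.5% lower. Cbr3, an NADPH-dependent reductase of quinones and other carbonyls, went from 1.26 to 57.5 FPKM, 45.5-fold, and became the most abundant of the 4. Cbr1, its paralogue on chromosome 16 with 72.7 kb between the deposited rows, went from 32.3 to 56.6 FPKM, 1.75-fold. Cbr1 spans positions 93607837 to 93610505 and Cbr3 positions 93683215 to 93690990, both on the plus strand. In attached cells Cbr1 was far above Cbr3, and in suspended cells both stood at nearly the same level. Cbr4, a mitochondrial quinone reductase, went from 19.1 to 32.0 FPKM (1.68-fold). Cbr2, a mitochondrial reductase known from lung, went the other way, from 2.40 to 0.806 FPKM (authors' deposited table, q = 0.00321), at a level close to the rule's minimum.

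**Figure D4:**
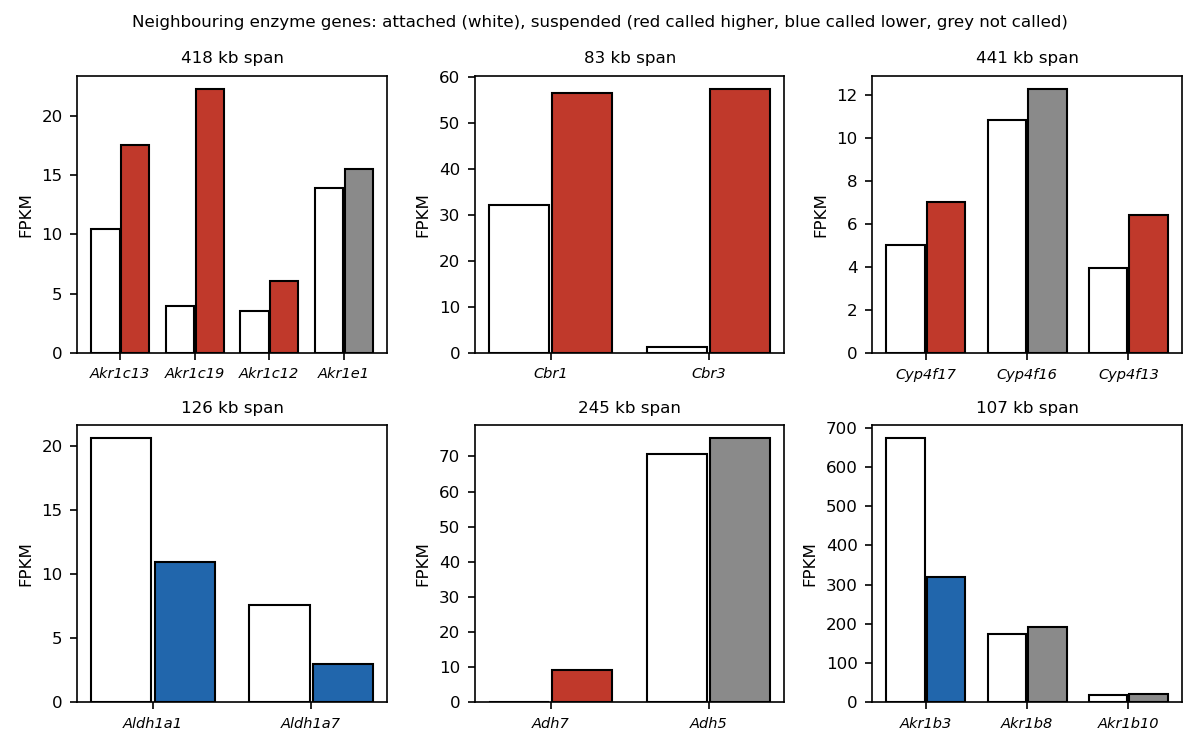
Deposited FPKM of the enzyme genes that have another gene of the set within 500 kb, in 6 groups drawn in chromosome order with linear axes from 0 (white bars attached, coloured bars suspended). Aldh1a1 and Aldh1a7 are both lower in suspension and Cbr1 and Cbr3 both higher, but Adh7, whose attached bar at 0.0298 FPKM is too low to see, is higher beside Adh5 without a call, and Akr1b3 is lower beside Akr1b8 and Akr1b10 without a call.

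The genes grouped here as clearing aldehydes of lipid peroxidation, alcohol and amine metabolism were higher in part, by small ratios apart from Aldh1b1. The grouping was made by assigned role, and activity was not tested. Of 8 genes 5 were called higher, 0 lower and 3 were not called. Beside this, 24.8% of tested rows of at least 1 FPKM were called higher and 29.5% lower. Aldh2, the mitochondrial enzyme that oxidises acetaldehyde, went from 33.6 to 43.3 FPKM (authors' deposited table, q = 0.0181). Aldh3a2, the fatty aldehyde dehydrogenase, went from 28.1 to 41.9 FPKM, 1.49-fold. Aldh9a1, which acts on aminoaldehydes, went from 24.2 to 29.5 FPKM (q = 0.0245), and Aldh3b1, which oxidises lipid-derived aldehydes, from 5.99 to 7.75 FPKM (authors' deposited table, q = 0.0345). The largest ratio in this group belonged to Aldh1b1, a mitochondrial enzyme, which went from 0.209 to 1.53 FPKM. Aldh1b1 entered the set through its suspended level only.

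Abundant members of the group were not called. Adh5, the glutathione-dependent formaldehyde dehydrogenase, stood at 70.8 and 75.2 FPKM (authors' deposited table, q = 0.543), the highest of the group in both conditions. Aldh7a1, which acts in lysine breakdown, stood at 44.3 and 39.0 FPKM, and Aldh16a1 at 10.7 and 7.96 FPKM. The summed level of the 8 genes was 218 FPKM attached and 246 FPKM suspended. Of the enzymes that break down amino acids, Aldh5a1, which oxidises succinic semialdehyde from the transmitter GABA, went from 2.28 to 6.92 FPKM (3.04-fold), and Aldh6a1, an enzyme of valine breakdown, stood at 10.4 and 12.4 FPKM (authors' deposited table, q = 0.220). Aldh6a1, Aldh7a1 and Aldh16a1 each overlap another protein-coding gene, and none of the 3 was called. Whether reads were counted by strand is not stated, so the source of their reads is uncertain.

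The cytochromes P450 were present at low levels and changed in both directions. Of 13 genes 6 were called higher, 3 lower and 4 were not called, and their summed level was 68.5 FPKM attached and 73.4 FPKM suspended. Tested rows of at least 1 FPKM were called higher in 24.8% and lower in 29.5% of cases. The best known targets of the aryl hydrocarbon receptor (AHR), a sensor of planar aromatic compounds, moved apart. Cyp1a1 (chromosome 9, positions 57697613 to 57703822) went from 0.0191 to 1.94 FPKM (authors' deposited table, q = 0.0294). Cyp1b1 (chromosome 17, positions 79706953 to 79715041) went from 2.90 to 1.20 FPKM, a log2 difference of -1.27, or -0.82 with a pseudocount of 1 FPKM. Cyp1a1 started near 0 and stayed below 2 FPKM, so its ratio of 101 is imprecise, and with a pseudocount of 1 FPKM its log2 difference was 1.53 in place of 6.67.

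Several P450s that oxidise drugs or fatty acids were higher. Cyp2s1, Cyp3a13 and Cyp7b1, like Cyp1a1, entered the set through their suspended level only, so the rule fixed their direction. Cyp2s1, a P450 found outside the liver, went from 0.654 to 8.26 FPKM (12.6-fold), the highest level among the P450s that more than doubled. Cyp3a13, a mouse member of the drug-oxidising CYP3A subfamily, went from 0.106 to 1.85 FPKM, and Cyp7b1, an oxysterol hydroxylase, from 0.259 to 2.85 FPKM. With a pseudocount of 1 FPKM the log2 difference of Cyp7b1 was 1.61 in place of 3.46. Among the fatty acid hydroxylases on chromosome 17, the authors' deposited table calls Cyp4f13 higher, from 3.96 to 6.41 FPKM (q = 0.00113), and Cyp4f17, from 5.01 to 7.04 FPKM (q = 0.00781). It does not call Cyp4f16, at 10.8 and 12.3 FPKM (authors' deposited table, q = 0.554). These 3 have coding sequences 82.9% to 84.6% identical. Cyp2u1, also a fatty acid hydroxylase, went from 1.83 to 0.554 FPKM, a log2 difference of -1.72, or -0.86 with a pseudocount of 1 FPKM. The highest of the 13 P450 genes was Cyp20a1, an orphan without a settled substrate, at 18.8 and 19.0 FPKM (authors' deposited table, q = 0.928). Cyp39a1, an oxysterol hydroxylase, stood at 6.93 and 6.72 FPKM and Cyp2j6, of an epoxygenase subfamily, at 3.13 and 3.73 FPKM, neither called.

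The UDP-glycosyltransferases with a row of their own moved apart. Ugt2b34 (chromosome 5, positions 86889767 to 86906937), of the subfamily that glucuronidates steroids and drugs, went from 0.820 to 8.58 FPKM, 10.5-fold. It entered the set through its suspended level only. Ugt8a (chromosome 3, positions 125865359 to 125938550), which puts galactose on ceramide and so serves lipid synthesis, went from 28.5 to 6.26 FPKM, 4.56-fold lower. The Ugt1a genes share exons and stand in 1 merged row, which the rule leaves out. That row went from 10.9 to 16.4 FPKM (authors' deposited table, q = 0.0324). Another merged row holds Cyp4v3 with Klkb1 and went from 4.01 to 20.8 FPKM, and the last holds Aldh4a1 with other genes and went from 32.3 to 21.2 FPKM. In merged rows the part of each gene is not resolved.

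Partners of these enzymes were examined in 8 lists of 124 entries, of which 5 symbols had no row of their own. Of 12 electron transfer partners of the P450s 3 were called higher, 1 lower and 8 not called. Across all 14748 tested rows 24.7% were called higher and 26.3% lower. Por, the reductase that feeds all microsomal P450s, stood at 84.0 and 76.5 FPKM (authors' deposited table, q = 0.354). The cytochromes b5 moved in opposite directions: Cyb5a (listed as Cyb5) went from 120 to 366 FPKM and Cyb5b, the form of the outer mitochondrial membrane, from 219 to 85.8 FPKM.

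In the AHR list 6 of 8 genes were called higher, 1 lower and 1 not called, with a median log2 fold change of 1.78. The shares over all tested rows were 24.7% higher and 26.3% lower. This list was chosen with earlier results of these data known, so its count is a description. Ahr itself went from 3.95 to 12.0 FPKM and its partner Arnt from 10.2 to 16.1 FPKM (authors' deposited table, q = 0.000355). Tiparp, a target and repressor of AHR, went from 9.93 to 49.6 FPKM, and Arnt2 from 1.69 to 7.80 FPKM. Nqo1, a quinone reductase induced by both AHR and NRF2, went from 83.2 to 325 FPKM. The repressor Ahrr, which did not reach 1 FPKM, went from 0.0222 to 0.480 FPKM (authors' deposited table, q = 0.00128). Cyp1a1 moved in the direction of most of this list and Cyp1b1 in the other.

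Of the nuclear receptors that sense drugs and lipids, 10 listed, 5 were tested, with 2 higher, 1 lower and 2 not called in the authors' deposited table. Nr1i2 and Nr1i3, the classical inducers of CYP3A and UGT genes, were at most 0.112 FPKM in either condition. Rxra, their dimer partner, went from 13.6 to 32.0 FPKM, and Nr1h4, the bile acid receptor, from 1.56 to 0.926 FPKM (authors' deposited table, q = 0.00563). Among regulators of NRF2, which drives many reductase genes, 6 of 9 with a row were called higher and 0 lower. For both lists the shares over all tested rows were 24.7% higher and 26.3% lower. Nfe2l2, the gene of NRF2, went from 140 to 204 FPKM. The largest ratio on that list belonged to Sqstm1, an autophagy receptor that binds KEAP1, from 305 to 1951 FPKM, followed by Bach1, a repressor at the same sites, from 6.05 to 36.1 FPKM. Keap1, which marks NRF2 for degradation, stood at 25.3 and 24.3 FPKM (authors' deposited table, q = 0.713).

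Other reductases and oxidases outside these symbols were also counted, beside 24.7% of all tested rows called higher and 26.3% lower. Of 18 tested carbonyl and quinone reductases the authors' deposited table calls 8 higher and 4 lower, with 6 not called. Blvrb, which reduces biliverdin and flavins, went from 7.16 to 61.4 FPKM, Ptgr1, a reductase of leukotrienes and alkenals, from 2.44 to 14.2 FPKM, and Blvra from 55.7 to 23.9 FPKM. Of 12 tested oxidases and hydrolases that act on drugs 9 were called higher, 2 lower and 1 not called. Fmo1, a flavin monooxygenase of the kidney, went from 2.14 to 12.0 FPKM, Fmo2 from 0.0515 to 1.37 FPKM, the carboxylesterase gene Ces2g from 0.256 to 1.22 FPKM and Xdh, xanthine dehydrogenase, from 2.54 to 8.49 FPKM.

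Of 18 tested genes of conjugation and sugar supply the authors' deposited table calls 8 higher and 3 lower, with 7 not called. It calls 24.7% of all tested rows higher and 26.3% lower. Ugdh, which makes the UDP-glucuronate that UGT enzymes use, went from 72.5 to 321 FPKM. The methyltransferase genes Inmt and Nnmt went from 360 to 67.3 FPKM and from 4.59 to 0.629 FPKM. The sulfotransferase gene Sult4a1 went from 0.0880 to 1.59 FPKM.

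**Figure D5:**
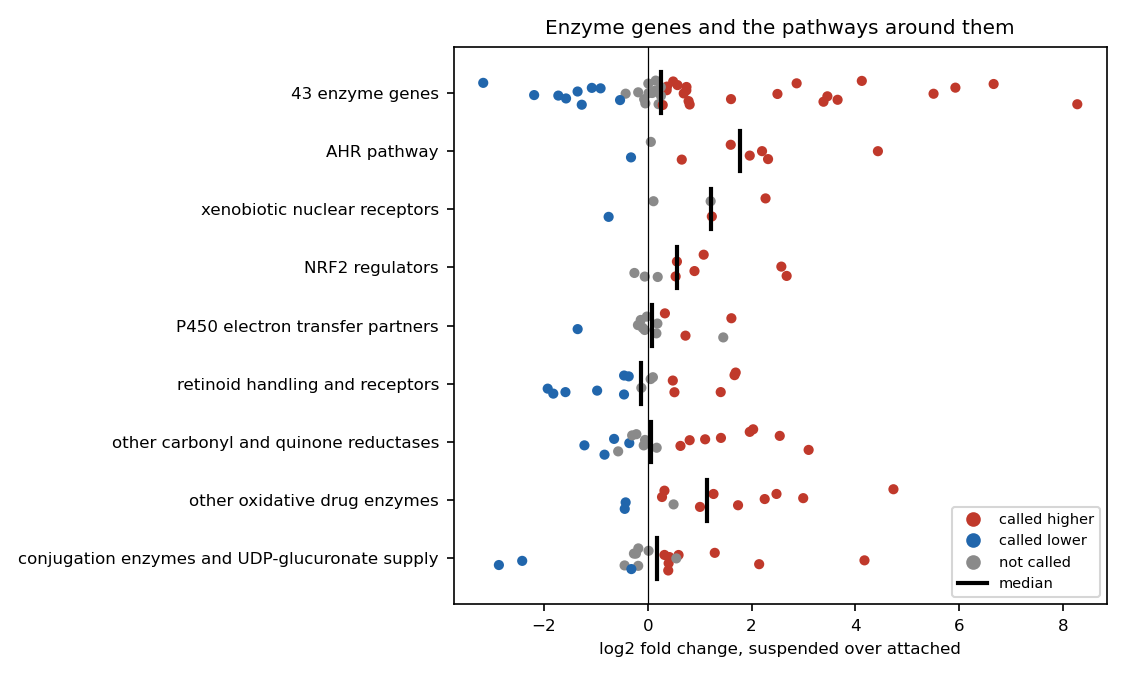
Each point is a tested gene, placed by the authors' deposited log2 ratio of suspended to attached cells and coloured by call, for the 43 enzyme genes and 8 lists around them; black bars are medians. The AHR list has its median at 1.78 and the enzyme genes at 0.26, while retinoid handling and receptors have 7 points called lower and 5 higher.

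Short motifs were searched in the promoters of the 35 enzyme genes with an entry in the RefSeq table (GRCm38.p6). Those without one were Akr1b3, Aldh1a3, Aldh2, Aldh7a1, Cyp2u1, Cyp39a1, Cyp4f17 and Cyp7b1. The antioxidant response core TGACNNNGC, on either strand of the 300-base window, was found in 4 of 35 (11.4%) and in 14.0% of all 27025 genes. Its holders were Akr1c19, Aldh1a2, Aldh9a1 and Cyp2j6, of which Akr1c19 and Aldh9a1 were called higher, Aldh1a2 lower and Cyp2j6 not called. The xenobiotic response core TNGCGTG was found in 3 of 35 (8.57%), Adh7, Aldh3a2 and Aldh9a1, and in 5.84% of all genes. All 3 were called higher, as were 48.8% of the 43 enzyme genes. The match of Adh7 lies after the start, and Cyp1a1 and Cyp1b1 had no match to this core in the window. The E-box CACGTG, searched for comparison, was found in 2 of 35 (5.71%) and in 8.09% of all genes. Elements further from the start were not searched.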

How the data were processed

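mRNA of 3 attached and 3 suspended samples was isolated and sequenced on an Illumina HiSeq, per the labels' protocols. TopHat, Bowtie, Cufflinks 1.0.3, Cuffdiff and the build mm10 are named, per the submitters' processing notes. Which annotation, settings and strand were used is not given in the sources used here. By the authors, FPKM were deposited pooled, as 1 value for each condition. Each row was deposited with a log2 fold change, a score of the test, a p-value and a q-value, per the file headers. Deposited p-values go no lower than 5e-05, and 22 of the 43 genes have the smallest q.

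The 43 genes, their roles and the lists were chosen with earlier results of these data known. No test across genes was run here: a call is the authors' q below 0.05 over 14748 tested rows. Ratios and sums of FPKM were computed with Python 3.11.15, pandas 2.3.3 and NumPy 2.4.6. A count of 1 was added to the deposited start positions, which are counted from 0: of 34227 rows with a GENCODE M21 gene of the same name, 19371 start 1 base below it. Coding sequences came from GENCODE M21 transcripts and were aligned globally with Biopython 1.88; promoters came from RefSeq. The adjustment was tested on simulated data, and the search for the 2 response cores and the E-box on motifs planted in sequence of A and T only. The search for the retinoic acid element was not tested in this way. Protein identity had been planned, and coding identity was used in its place; the retinoic acid element was searched after the data were seen. The rule for names gives values for genes called with at least a 2-fold change and at least 5 FPKM, the highest gene of each family, other members as examples, and from each list up to 4 called genes of largest fold change, plus Ahr, Nfe2l2, Keap1, Por, Nqo1 and Ugdh. Beyond it, the remaining members, the marker genes, Arnt, Ahrr, Nr1i2, Nr1i3, Vdr, Crabp2, Dhrs3, Rara, Rarg, Rdh10 and Blvra are named after their values were seen. A further podocyte marker is not reported here. Depth and the spread between libraries are unknown. Alternatives covered the q threshold, a 2-fold minimum, the adjustment, the level floor, merged rows, overlapping genes, pseudocounts and centring.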

Additional observations from a re-analysis of the deposited data

How the results depend on the processing

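The counts of 21 genes called higher and 9 lower stayed within 1.5 times under q thresholds of 0.01 and 0.1, a recomputed Benjamini-Hochberg adjustment, other level floors, added merged rows and removal of overlapping genes. A 2-fold minimum left 11 genes called higher, as did 2-fold on the centred scale (11). With the 2-fold minimum, genes called higher numbered 1 for AKR, 3 for ALDH, 1 for CBR, 3 for NRF2 regulators, 1 for P450 partners, 3 for retinoid handling and 3 for conjugation, and genes called lower numbered 1 for ALDH, 0 for AHR, 0 for nuclear receptors, 3 for retinoid handling, 1 for other reductases and 0 for drug oxidases. Centring turned the sign of 2 genes without a call, Akr7a5 to a log2 value of 0.0401 and Cyp39a1 to 0.0626. With a pseudocount of 1 FPKM the log2 fold change of 9 called genes shrank by over 1.5 times (Adh7, Aldh1a3, Aldh1b1, Cbr2, Cyp1a1, Cyp1b1, Cyp2u1, Cyp3a13 and Cyp7b1), and with 0.1 FPKM that of 1. The antioxidant and the xenobiotic response core were each found in 2 genes when only the 250 bases before the start were read. No paired analysis was possible because the values analysed here are pooled over the libraries of each condition, and for the same reason leaving out replicates was not run. Depth is unknown, so low levels such as that of Cyp1a1 have no interval.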

Other observations

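Below the level rule, 115 further rows carried one of these symbols, of which 39 were listed at 0 in both conditions and 9 were tested. Of these, 4 were called higher in the authors' deposited table and 0 lower, beside 24.7% and 26.3% of all tested rows. Cyp27b1, which makes the active form of vitamin D in the kidney, went from 0.118 to 0.668 FPKM (authors' deposited table, q = 0.00128), and Vdr, the receptor of that hormone, from 0.155 to 0.749 FPKM. Ugt2b35, a neighbour of Ugt2b34 on chromosome 5, went from 0.104 to 0.582 FPKM (authors' deposited table, q = 0.00805). Cyp2j9, a relative of Cyp2j6, went from 0.0399 to 0.511 FPKM (authors' deposited table, q = 0.00399), and the pseudogene Cyp4f41-ps from 0.336 to 0.862 FPKM (authors' deposited table, q = 0.0146). Aldh3a1, an aldehyde dehydrogenase that AHR induces in other tissues, stood at 0.0984 and 0.562 FPKM (authors' deposited table, q = 0.198). All of these stayed below 1 FPKM.

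Of the genes left out beforehand, Aldh18a1, which starts proline synthesis, went from 34.6 to 13.9 FPKM, and Cyp51, of cholesterol synthesis, from 55.0 to 41.2 FPKM (authors' deposited table, q = 0.0116).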
